A study of Caenorhabditis elegans with 10 samples.

Results

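The genes described here are the yolk protein genes of *Caenorhabditis elegans*, *vit-1* to *vit-6*, and *rme-2*, the gene for the yolk receptor of oocytes. They were chosen by their names, and values are given for those present in the authors' table of RNAs enriched with the tagged protein DLC-1. The enrichment that put them there is given as a description and not as a finding. Of these 7 genes 5 are in the table, *vit-1*, *vit-2*, *vit-4*, *vit-5* and *vit-6*, out of 2732 genes in all. *vit-3* and *rme-2* are not listed.

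RNA was sequenced from synchronized young adult worms of the genotype 3xFLAG::DLC-1, in 5 immunoprecipitates made with an antibody against FLAG and 5 inputs. DLC-1 is a dynein light chain of the LC8 family, a small subunit of the dynein motor that also binds many partners outside it, and the comparison asks which RNAs come down with it. Both groups carry the tag and both were drawn from extracts of whole worms, so intestine, germline and all other tissues contributed, and fewer cells of a type and less RNA per cell cannot be told apart. Input libraries were primed with oligo-dT while the immunoprecipitated RNA had no enrichment step, so library type and group cannot be told apart. Immunoprecipitates from worms without the tag were not analysed here. The table gives 1 mean, 1 fold change and 1 standard error (SE) for each gene and no value for any single library, so depth is unknown, and the labels do not say whether the numbered replicates were separate cultures.

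Vitellogenins are large lipid-binding proteins related to the apolipoproteins of vertebrates. In the adult hermaphrodite they are made in the intestine, released into the body cavity and taken up by growing oocytes through RME-2, a receptor of the LDL receptor family, on clathrin-coated vesicles. The products of *vit-1* and *vit-2* and those of *vit-3*, *vit-4* and *vit-5* make up the large yolk proteins, while *vit-6* is a diverged member whose product is cut into a pair of smaller yolk proteins.

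All 7 genes are protein-coding in the WBcel235 reference. The paralogues *vit-1* to *vit-5* lie on chromosome X, at 7727889 to 7733168 (*vit-1*), 5101032 to 5106169 (*vit-2*), 3567355 to 3572549 (*vit-3*), 3558769 to 3563965 (*vit-4*) and 3403471 to 3408603 (*vit-5*). *vit-6* (8261157 to 8266459) and *rme-2* (5470027 to 5473174) lie on chromosome IV. The 6 vitellogenin genes are alike in span, from 5133 to 5303 bp with introns, and *rme-2* spans 3148 bp. *vit-3* and *vit-4* are next to each other, 3389 bp apart, and only *vit-4* of the pair is listed.

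The listed yolk genes fell into a lower and a higher tier of fold change, and the tiers did not follow the split between the *vit-1* to *vit-5* paralogues and the diverged *vit-6*. In the authors' deposited table *vit-1* stood at 2.55 ± 0.15 (log2 fold of immunoprecipitate over input ± SE), or 5.84-fold. *vit-6* stood next to it, at 2.51 ± 0.16 or 5.68-fold in the authors' deposited table. Both lay above the median of all listed genes, which was 2.13.

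The other listed paralogues were lower and close to one another. In the authors' deposited table *vit-4* stood at 1.34 ± 0.19 (log2 fold ± SE), or 2.53-fold, *vit-5* at 1.30 ± 0.17, or 2.46-fold, and *vit-2* at 1.28 ± 0.21, or 2.43-fold. These 3 genes spanned 0.060 on the log2 scale, less than any of their standard errors. The authors' deposited table gives their adjusted p-values (one-sided, Benjamini-Hochberg) as 2.20e-13 for *vit-5*, 3.65e-12 for *vit-4* and 3.54e-09 for *vit-2*. Those of *vit-1* and *vit-6* were 1.32e-65 and 5.49e-53 in the authors' deposited table. All of them are part of what put the genes in the table. In the whole comparison 13.4% of genes were called, 2732 of the 20328 tested. The 7 genes were chosen with earlier results of these data known, so nothing is read from the 5 of 7.

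The 95% intervals, taken from the SE by the normal distribution, did not overlap between the tiers. The tiers were drawn from these same folds, so the intervals describe them and do not test them. That of *vit-1* ran from 2.26 to 2.83 and that of *vit-6* from 2.19 to 2.82. Those of *vit-4* (0.98 to 1.70), *vit-5* (0.97 to 1.64) and *vit-2* (0.88 to 1.69) each reached below the table's threshold of 1. Of the 10 pairs among the 5 genes, 4 had overlapping intervals, *vit-1* with *vit-6* and the 3 pairs within the lower tier. In the 6 pairs across the tiers the intervals did not overlap. Such intervals treat each gene alone. The 5 genes were measured in the same libraries, and close paralogues can share reads, so the error of a difference between them is not known and no test of a difference was made.

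**Figure D1:**
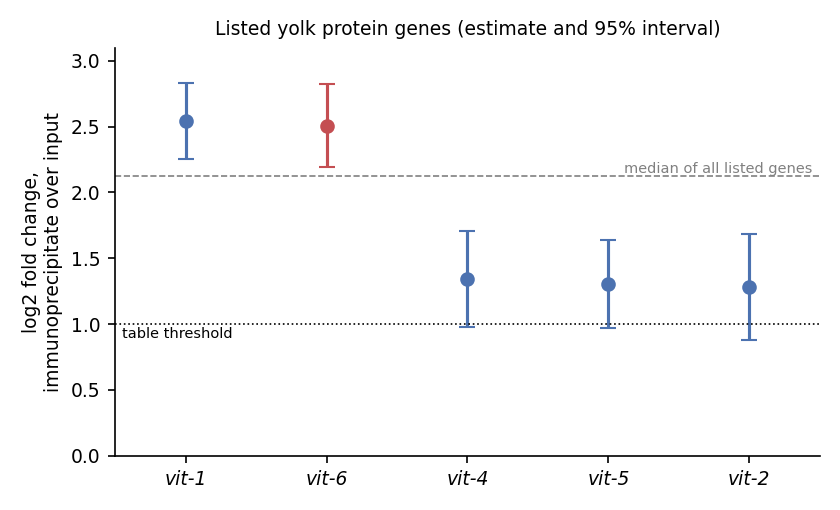
Log2 fold change of immunoprecipitate over input for the 5 listed yolk genes (points, the authors' deposited table) with 95% intervals (bars); *vit-6* is red, the dotted line is the table's threshold of 1 and the dashed line the median of all listed genes, 2.13. *vit-1* and *vit-6* lie above the dashed line and *vit-4*, *vit-5* and *vit-2* lie below it with intervals that cross the threshold.

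Set against its paralogues as a group, *vit-6* was higher by 1.18 on the log2 scale than the median of the 4 listed ones. This difference describes *vit-6* against *vit-2*, *vit-4* and *vit-5*, from which it stood 1.22, 1.16 and 1.204 higher, and not against *vit-1*, which was 0.040 above it. With the plain mean of the 4 paralogues, which gives *vit-1* its full weight, the difference was 0.89. The widest contrast among all 10 pairs was that of *vit-1* and *vit-2*, genes for the same class of yolk protein, whose folds differed 2.40 times.

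Most of the listed yolk mRNAs were at the top of the table in mean count over both groups of libraries together, before any correction for length. The means over the libraries in the authors' deposited table, in normalized counts, were led by *vit-2* with 101613 and *vit-6* with 97891, then *vit-5* with 93063 and *vit-4* with 83871, the 4 highest of the 2732. *vit-1* came seventh, at 23155 in the authors' deposited table. Per kilobase of gene span, 5 short histone genes came ahead of *vit-2*, which ranked 6 among all listed genes. Together the 5 yolk genes held 17.7% of the summed means of all listed genes. The median listed gene had a mean of 222, and 14 genes had a mean of at least 10000.

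The genes between and just after them in mean were of other kinds. In the authors' deposited table *anc-1*, a giant protein that anchors nuclei, had a mean of 67171 and a log2 fold change of 6.59 ± 0.30 (± SE). The myosin heavy chain gene *unc-54* followed, at 40413 and 4.35 ± 0.26 in the authors' deposited table. The eggshell gene *cbd-1* had 19485 and 1.59 ± 0.090, and the translation elongation factor gene *eef-2* had 16270 and 1.16 ± 0.15, again in the authors' deposited table. ZC247.1 closed the 10 highest, with 14857 and 5.997 ± 0.18 in the authors' deposited table. The 10 highest means are thus the 5 listed yolk genes and 5 others. Of these 5 others, 4 had a higher fold than *vit-2*, *vit-4* and *vit-5*, and 3 had a higher fold than *vit-1* and *vit-6*.

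**Figure D2:**
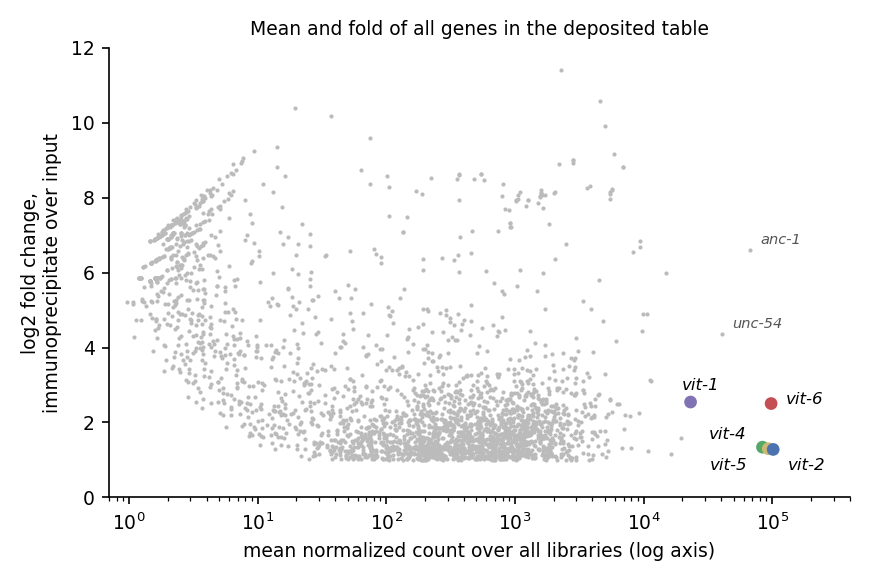
Mean normalized count over all libraries (log axis) against log2 fold change for the 2732 genes of the authors' deposited table (grey points), with the 5 listed yolk genes in colour. The yolk genes sit at the far right; *vit-2*, *vit-4* and *vit-5* lie near the lower edge of the cloud and *vit-1* and *vit-6* above them, while *anc-1* and *unc-54* combine high means with log2 fold changes of 6.59 and 4.35.

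Among all 2732 genes the folds of *vit-1* and *vit-6* were ordinary and those of the other 3 were low. *vit-1* ranked 1101 and *vit-6* ranked 1124 from the top, so that 59.7% and 58.9% of the other listed genes had a lower fold. *vit-4*, *vit-5* and *vit-2* ranked 2188, 2250 and 2287, with 19.9%, 17.6% and 16.3% of the others below them. The gene next below *vit-2*, the lowest of the listed yolk genes, was *pry-1*, at 1.28 on the log2 scale in the authors' deposited table, and the lowest log2 fold change of the whole table was 1.00. Within the 50 highest means, whose median log2 fold change was 2.57, 25 genes were above *vit-1*, 26 above *vit-6* and 44 above *vit-2*.

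The mean and the fold of a gene together imply a level in each group, if the mean is that of 5 libraries a side and the group means stand in the ratio of the fold. On this basis *vit-2* had 59252 normalized counts in the inputs and 143975 in the immunoprecipitates. *vit-5* had 53728 and 132398, and *vit-4* had 47468 and 120274, both below the 132962 of *anc-1* in the immunoprecipitates. *vit-6* had 29315 and 166466, and *vit-1* had 6771 and 39538.

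Expressed per kilobase of gene span, so that genes can be compared, the implied input levels fell in the order *vit-2* (11532 normalized counts), *vit-5* (10467), *vit-4* (9134), *vit-6* (5528) and *vit-1* (1282). In the immunoprecipitates *vit-6* came first, with an implied level of 31391 per kilobase, ahead of *vit-2* at 28022, *vit-5* at 25793, *vit-4* at 23143 and *vit-1* at 7488. *vit-6* was thus 0.479 times the level of *vit-2* in the inputs and 1.12 times its level in the immunoprecipitates. *vit-1* was the lowest in both groups, with *vit-2* at 8.99 times its level in the inputs and 3.74 times in the immunoprecipitates.

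The uncertainty of the fold leaves some of this order unsettled. In the inputs the levels per kilobase that the 95% intervals allow were 9382 to 13947 for *vit-2*, 8829 to 12273 for *vit-5* and 7579 to 10867 for *vit-4*, which overlap. Those of *vit-6* (4577 to 6637) and *vit-1* (1079 to 1516) lay below them and apart from each other. In the immunoprecipitates the interval of *vit-6* (30282 to 32342) stood just above that of *vit-2* (25607 to 30172), and *vit-2*, *vit-5* (23987 to 27432) and *vit-4* (21410 to 24697) formed a chain in which *vit-2* and *vit-4* did not overlap. These ranges carry the error of the fold alone and not that of the mean, so they are too narrow. Nor do they cover reads shared by close paralogues, whose assignment is not known here.

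**Figure D3:**
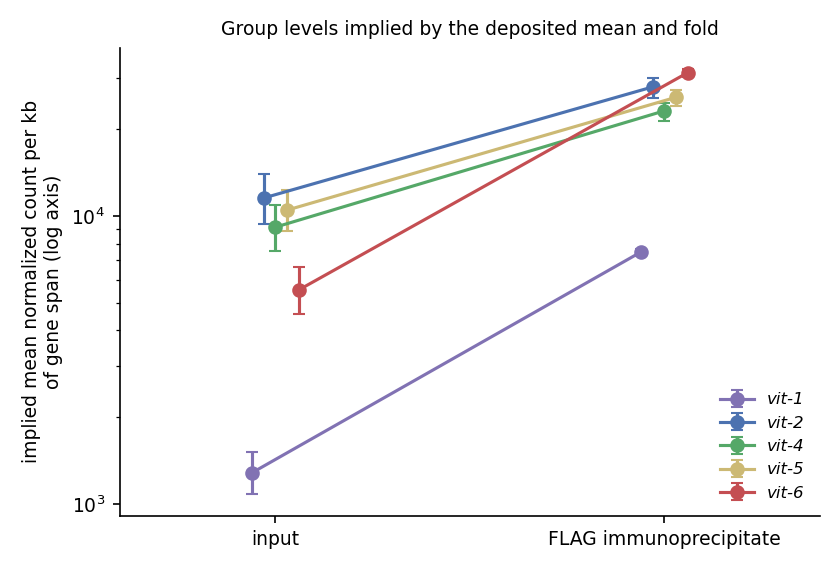
Implied mean normalized count per kilobase of gene span (log axis) in the inputs and in the FLAG immunoprecipitates for each listed yolk gene; bars show the range that the 95% interval of the fold allows, with the mean held fixed. *vit-6* lies under *vit-2*, *vit-4* and *vit-5* in the inputs and above them in the immunoprecipitates, and *vit-1* is lowest in both.

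As parts of the yolk mRNA pool, the genes shifted places between the groups. *vit-6* made up 14.9% of the summed implied levels of the 5 genes in the inputs and 27.6% in the immunoprecipitates. *vit-1* went from 3.45% to 6.56%. The shares of *vit-2* (30.1% and 23.9%), *vit-5* (27.3% and 22.0%) and *vit-4* (24.15% and 19.96%) were smaller in the immunoprecipitates. *vit-3* is missing from these sums because it is not listed. The shares also depend on how reads shared by close paralogues were assigned, which is not known here.

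The pool as a whole had a smaller fold than the rest of the table. Summed over the 5 genes the implied level was 3.07 times higher in the immunoprecipitates, against 4.55 times for the other listed genes together. Of the implied levels of all listed genes, the 5 yolk genes held 22.6% in the inputs and 16.5% in the immunoprecipitates. These sums cover listed genes only, all of which were selected for being higher in the immunoprecipitates.

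The standard errors of the yolk genes lay within the range of those of other abundant listed genes. For genes with so many reads, an SE implies a coefficient of variation between libraries of a group, which ran from 16.1% (*vit-1*) over 17.6% (*vit-6*), 18.7% (*vit-5*) and 20.3% (*vit-4*) to 22.6% (*vit-2*). The 20 other listed genes with the nearest means, which are the same 20 for every yolk gene, gave a median of 21.0% and a median SE of 0.19 on the log2 scale, with a range of 0.090 to 0.32. Their own means ran from 6919 to 67171, below that of every listed yolk gene but *vit-1*. Of these 20 genes 16 had a larger SE than *vit-1* and 9 had a larger SE than *vit-2*. The median SE of all listed genes was 0.31.

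No listed gene outside the yolk family was close to *vit-6* in both mean and fold. By distance in the plane of log2 mean and log2 fold change, the nearest genes outside the yolk family were *unc-54* at 2.24, *cbd-1* at 2.50, *eef-2* at 2.92, F57F4.4 at 3.17 and the ubiquitin ligase gene *eel-1* at 3.20 log2 units. The likeness is one of 2 summary values and not of a pattern over samples.

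Neither *vit-3* nor *rme-2* has a value here. A gene outside the table may have had an adjusted p above 0.01, a fold under 2, or no test at all, and these cases cannot be told apart for either gene. Of the 3494 genes that the adjusted p-values imply were past 0.01, 762 are not in the table. The listing of a gene varied with its span: 10.6% of the 19983 protein-coding genes of the reference were listed, 10.02% of those spanning 2500 to 4000 bp, where *rme-2* falls, 23.01% of those spanning 4500 to 6000 bp, where the vitellogenins fall, and 43.1% of those above 6000 bp. By chromosome, 13.0% of the protein-coding genes of X and 10.3% of those of IV were listed.

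The genes around the yolk genes in the genome were listed at about the share of all protein-coding genes. Of the 36 other protein-coding genes that flank the 7 loci, 3 on each side and each counted once, 4 were listed, or 11.11%, against 10.6% of all protein-coding genes. They were *rgs-7* beside *vit-4* at 1.93 ± 0.32 (log2 fold ± SE), *apl-1* and *pnk-4* near *vit-2* at 1.71 ± 0.26 and 1.64 ± 0.32, and K09F5.6 near *vit-1* at 1.84 ± 0.41, all in the authors' deposited table. None of the 6 flanking genes of *vit-5*, *vit-6* or *rme-2* was listed. The reference places C42D8.9 across the last 11 bp of *vit-2*, and small non-coding RNA genes across one end of *vit-4* (F59D8.3) and of *vit-3* (T27A10.8), and none of these is listed. How reads in such overlaps and reads shared by paralogues were assigned is not given in the sources used here.

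Other genes of the yolk pathway were looked up in 4 lists made from general knowledge of the worm. The lists were drawn up with earlier results of these data known, so no excess is read from their shares. Of the 74 genes they name, 72 were found in the reference, of which 23 were listed, or 31.9%. For comparison, 10.6% of the protein-coding genes of the reference were listed, and 13.4% of all genes tested were called. The median log2 fold change of the 23 was 1.93, against 2.13 for all listed genes. Listed members had longer spans than unlisted ones, with medians of 6029 and 2332 bp in the uptake list and 13985 and 2885 bp in the list of regulators. The part of gene span in these counts was not tested.

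Among regulators of the *vit* genes, 7 of 24 were listed, or 29.2%, against 13.4% called among all genes tested. No excess is read from this share. *unc-62*, a homeodomain protein that activates *vit* genes in the intestine, stood at 2.30 ± 0.39 (log2 fold ± SE) in the authors' deposited table. The heterochronic zinc finger gene *lin-29* was at 2.79 ± 0.58 on a mean of only 24.7, in the authors' deposited table. Genes of TOR signalling were also there, with *let-363*, the TOR kinase, at 2.77 ± 0.18 and *rict-1*, the Rictor subunit of its second complex, at 2.20 ± 0.088 in the authors' deposited table.

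The remaining listed regulators were *lin-35*, the retinoblastoma homologue, at 2.83 ± 0.48, and the nuclear receptor genes *nhr-25* at 2.04 ± 0.45 and *nhr-49* at 1.13 ± 0.22 (log2 fold ± SE, the authors' deposited table). The intestinal GATA factor genes *elt-2* and *elt-7* were not listed. Nor were *ceh-60* and *mab-3*, which act on *vit* transcription, or the insulin pathway genes *daf-2* and *daf-16*.

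Of 12 genes for yolk assembly and secretion 1 was listed, *sec-24.2*, a coat subunit of vesicles leaving the endoplasmic reticulum, at 1.82 ± 0.16 (log2 fold ± SE) in the authors' deposited table. *dsc-4*, which encodes the large subunit of the microsomal triglyceride transfer protein that loads lipid, was not listed. With 1 gene of 12, or 8.33%, this list is too short for its share to be set against the 13.4% of all genes tested.

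Of the 30 genes of the uptake list 12 were listed, or 40%, against 13.4% called among all genes tested. The receptor itself was not among the 12. As given above, the listed genes had longer spans than the unlisted ones, and no excess is read from this share. The clathrin heavy chain gene *chc-1* stood at 1.53 ± 0.12 (log2 fold ± SE) with a mean of 5180 in the authors' deposited table, and the adaptor subunit genes *apa-2* and *apb-1* at 2.28 ± 0.35 and 1.16 ± 0.088. Genes first found through failed yolk endocytosis were among them: *rme-8*, an endosomal J-domain protein, stood at 2.50 ± 0.15, *rme-6*, an activator of RAB-5, at 1.54 ± 0.24, and *rme-4*, an activator of RAB-35, at 1.35 ± 0.18 in the authors' deposited table. The fold of *rme-8*, 5.66 in the authors' deposited table, was close to that of *vit-6*.

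Accessory proteins of coated pits made up the others. By the authors' deposited table *ehs-1* (Eps15) stood at 1.93 ± 0.16, *unc-11* (AP180) at 1.56 ± 0.11, *lst-4* (a sorting nexin) at 1.52 ± 0.20, *itsn-1* (intersectin) at 1.50 ± 0.14, *epn-1* (epsin) at 1.38 ± 0.24 and *dyn-1* (dynamin) at 1.25 ± 0.11 (log2 fold ± SE). None of the Rab GTPase genes *rab-5*, *rab-7*, *rab-10*, *rab-11.1* and *rab-35* was listed, nor was *rme-1*, which acts in recycling.

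Of the relatives of RME-2 that carry LDL receptor repeats, 3 of 7 genes were listed, a count in which *rme-2* is one of the 4 unlisted. The share was 42.9%, against 13.4% called among all genes tested, and no excess is read from it. By the authors' deposited table *lrp-2* stood at 2.34 ± 0.21, the perlecan gene *unc-52* at 2.15 ± 0.16 and the megalin homologue *lrp-1* at 2.02 ± 0.17 (log2 fold ± SE). The 3 had a median span of 19968 bp against 2412 bp for the unlisted. The oocyte surface genes *egg-1* and *egg-2* were not listed.

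**Figure D4:**
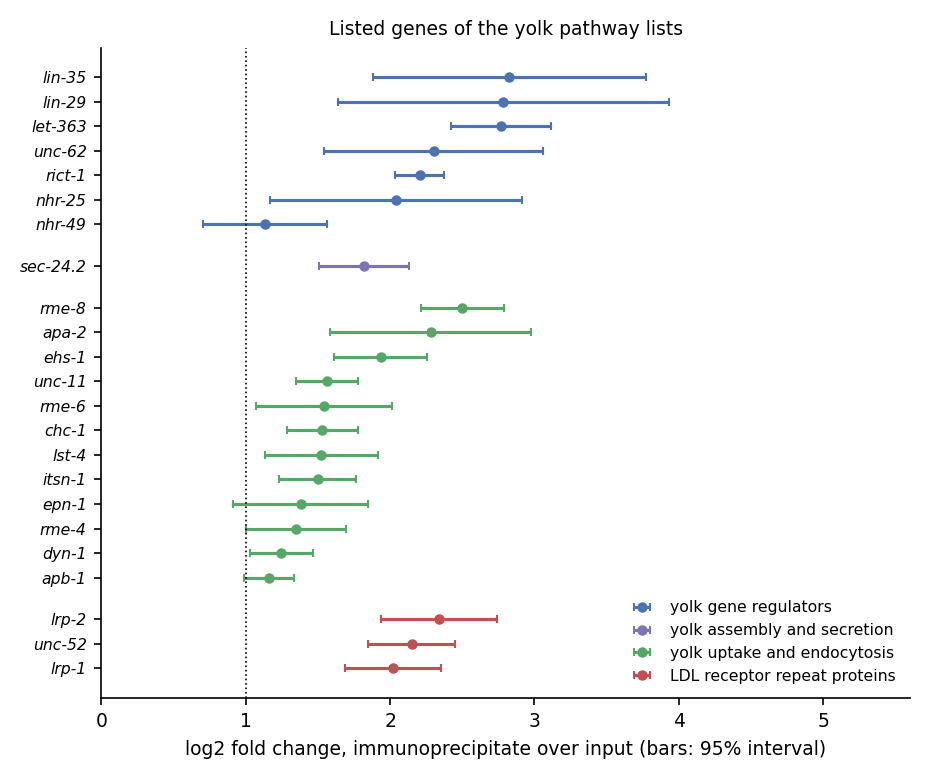
Log2 fold change of immunoprecipitate over input (points, the authors' deposited table) with 95% intervals (bars) for the 23 listed genes of the 4 yolk pathway lists; the dotted line is the table's threshold of 1. The regulators range from 1.13 (*nhr-49*) to 2.83 (*lin-35*), while the uptake genes range from 1.16 (*apb-1*) to 2.50 (*rme-8*).

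Marker genes of the tissues that make and take up yolk were also looked up. Of 21 further intestinal marker genes 2 were listed, *pept-1* at 1.15 ± 0.20 and *pgp-1* at 1.04 ± 0.29 (log2 fold ± SE, the authors' deposited table), both below every listed *vit* gene. Of 14 oocyte markers, *rme-2* included, 2 were listed, *chs-1* and *cbd-1*, at 1.62 ± 0.090 and 1.59 ± 0.090 (log2 fold ± SE) in the authors' deposited table. Of the 3 coelomocyte markers, from the scavenger cells that also take up yolk, none was listed. The listed shares, of markers found in the reference, were 9.52% for intestine and 14.3% for oocyte. For comparison, 10.6% of protein-coding reference genes were listed and 13.4% of all genes tested were called. The marker lists are too short for their shares to be set against these values. Listed markers had longer spans than unlisted ones, with medians of 6186 and 2125 bp for intestine and 4706 and 2029 bp for oocyte.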

How the data were processed

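Sequencing was of 5 FLAG immunoprecipitates and 5 inputs. Tools named in the submitters' processing notes are DESeq2 1.12.3, STAR 2.5.2b-0, Bowtie2 2.3.0 and Trim Galore; builds are ce11 and WBcel235. The deposited table gives, per the file headers, a mean signal (normalized counts averaged over libraries), a log2 fold change with its standard error, a test score, and raw and adjusted p-values. Its lowest log2 fold change is 1.00 and its adjusted p-values are under 0.01. The number of genes tested was recovered from the Benjamini-Hochberg values (96.2% of implied ranks whole to 0.0001; the recovery was tested on simulated data). No model was refitted.

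Names were matched to 46926 RefSeq genes of WBcel235 (97.4% of 2732). Implied group levels are 2 × mean / (1 + fold) and that value times the fold; the implied variation is SE × ln 2 × √(5/2), in Python 3.11.15 with pandas 2.3.3. Gene span replaced the coding length. Sequences of promoters and proteins were not used here. Named genes were all members, listed pathway genes, the 10 highest means, the 5 genes outside the yolk family nearest *vit-6*, and fold neighbours. Flanking genes were added. Members and lists were chosen with earlier results of these data known.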

Additional observations from a re-analysis of the deposited data

How the results depend on the processing

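Of 22 alternatives tried over the results above, 13 left the value about where it was. Several of the 13 could hardly have moved it. Every listed yolk gene has a mean far above the floor of 100, and no name was matched by a synonym. With 1 paralogue left out, the median of the rest is always *vit-4* or *vit-5*. The count of 13 is therefore not a measure of robustness. A log2 fold change of at least 2 left 2 of the 5 listed yolk genes, *vit-1* and *vit-6*, and 11 of the 23 pathway genes, and a 95% interval wholly above 1 also left 2 yolk genes. The lead of *vit-6* over its paralogues, 1.18 by their median, was 0.89 by their mean and 0.77 by their weighted mean, and 1.16 to 1.204 with each paralogue left out in turn. Per 1000 bases of gene span, a ranking chosen after seeing the data, 0 yolk genes were among the 5 highest means, among all genes or protein-coding ones. The 5 ahead were histone genes, led by *his-58*, with *vit-2* sixth. The count of yolk genes with an SE above the median of the 20 genes of nearest means was 1 (*vit-2*), and 0 with the 50 nearest means or the 20 nearest folds, also chosen afterwards. With every fold at the lower or the upper bound of its interval, the share of *vit-6* in the yolk pool was 13.4 or 12.1 percentage points larger in the immunoprecipitates, against 12.7 with the folds as given. Moving all folds the same way changes their ratios little, so these values do not bound the share. Protein identity and promoter motifs, planned as results, were not run. No paired analysis was possible because the table carries no values per library, and for the same reason no replicate could be left out. Depth is unknown.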
